A study of Mus musculus with 74 samples.

Results

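Chromatin accessibility of brown adipocytes was compared between ZT13 and ZT9, the sampled times on either side of lights off. The comparison uses 6 ATAC-seq libraries, 3 taken at ZT13 and 3 at ZT9, out of 18 ATAC-seq libraries of brown adipose tissue (BAT) and 74 samples in the whole series. They were chosen by the tissue, assay and time in their labels alone. Zeitgeber time (ZT) is the number of hours since the lights came on. Lights off was taken as ZT12 by the usual convention, because the labels state no light schedule. All 6 libraries came from mice that carry Adiponectin-Cre, a recombinase driven by a promoter active in adipocytes, together with the NuTRAP allele, which tags the nuclei and ribosomes of cells that express Cre. The labelled genotype was the same at ZT13 and ZT9, and the labels give the time of sampling as the difference between them. The BAT depots had been snap frozen, and tagged nuclei were sorted by flow cytometry before the Omni-ATAC reaction, in which a transposase cuts DNA that is not wrapped in nucleosomes. The labels give no age, sex or diet, and do not state that replicates are separate animals, so each p-value measures the spread between libraries, which may be technical.

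Brown adipose tissue burns fatty acids to make heat through the uncoupling protein UCP1, and its adipocytes also take up glucose and make new lipid. In nocturnal mice lights off opens the active and feeding phase. The circadian clock of these cells is a loop in which the CLOCK and BMAL1 pair drives Per, Cry and Nr1d genes through E-box sites, and the products of those genes repress the pair or the Arntl gene that encodes BMAL1. An accessible promoter or enhancer is a place where such factors can bind. The count of transposase cuts there (tags) rises as more nuclei hold it open.

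The deposited table lists 42572 regions, each spanning 150 bp on the mouse build mm10, with one set of regions for all BAT libraries. The sequences below are reference letters before the start site (RefSeq, GRCm38.p6, the same assembly as mm10), read 5' to 3' on the strand of the gene, for promoter regions described further on. They are a promoter among the closing regions of smallest p, 4 promoters of adipocyte and lipid genes, and 2 clock promoters with an E-box. Capitals mark letters that match the E-box CACGTG, the nuclear receptor site AGGTCA or the C/EBP site TTGCNNAA on either strand.
8430426J06Rik, minus strand, chr15:81248092-81248221: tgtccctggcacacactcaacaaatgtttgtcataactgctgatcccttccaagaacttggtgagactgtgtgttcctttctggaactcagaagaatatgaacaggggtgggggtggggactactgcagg
Plin1, minus strand, chr7:79732803-79732953: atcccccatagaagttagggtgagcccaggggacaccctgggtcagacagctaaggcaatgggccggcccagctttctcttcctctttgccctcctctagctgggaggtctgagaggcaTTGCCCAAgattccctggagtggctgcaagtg
Adipoq, plus strand, chr16:23146397-23146535: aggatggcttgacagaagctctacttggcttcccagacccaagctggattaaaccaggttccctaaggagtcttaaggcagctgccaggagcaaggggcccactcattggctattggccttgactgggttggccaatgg
Pparg, plus strand, chr6:115421816-115421923: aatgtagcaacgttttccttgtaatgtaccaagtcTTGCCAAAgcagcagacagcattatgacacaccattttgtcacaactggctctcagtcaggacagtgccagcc
Thrsp, minus strand, chr7:97417615-97417765: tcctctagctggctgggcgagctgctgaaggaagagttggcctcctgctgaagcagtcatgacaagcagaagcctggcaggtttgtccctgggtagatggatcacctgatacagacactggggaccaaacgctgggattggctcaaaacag
Ciart, minus strand, chr3:95882293-95882443: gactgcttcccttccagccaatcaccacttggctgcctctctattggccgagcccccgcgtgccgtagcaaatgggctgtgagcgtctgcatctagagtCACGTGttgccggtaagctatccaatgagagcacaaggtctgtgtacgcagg
Per1, plus strand, chr11:69098740-69098890: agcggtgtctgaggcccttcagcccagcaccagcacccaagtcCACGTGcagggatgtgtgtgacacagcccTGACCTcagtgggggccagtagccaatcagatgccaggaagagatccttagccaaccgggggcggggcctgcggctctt

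Across lights off, no region passed the test. In edgeR's quasi-likelihood test over all 18 BAT libraries, 0 of 42572 regions (0%) reached an adjusted p under 0.05, and the smallest adjusted p was 0.0830, shared by 11 regions. At an unadjusted p under 0.05 there were 5623 regions, of which 2985 were higher at ZT13 (7.01% of all regions) and 2638 were lower at ZT13 (6.20%). The ZT13 libraries all lay above the ZT9 libraries in 4487 regions (10.5%) and all below them in 4172 regions (9.80%). The differences were small. The median absolute log2 change was 0.13, the middle 90% of regions lay between -0.42 and 0.38, and 319 regions differed by more than 2-fold. A typical log2 change carried a standard error (SE) of 0.15.

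The number of called regions differed between fits. DESeq2 on the same 18 libraries called 132 regions, 63 higher and 69 lower at ZT13. With only the 6 libraries of ZT13 and ZT9 in the edgeR fit, 292 regions were higher (0.686%) and 835 lower (1.96%) at ZT13. The common dispersion, the squared coefficient of variation between replicates, was 0.00662 in that fit and 0.0103 over the 18 libraries. Within single times the coefficient of variation was 4.83% at ZT13 and 9.59% at ZT9, against 14.9% at ZT21. Leaving out the ZT9 library labelled replicate 2 gave 461 called regions, 250 higher and 211 lower at ZT13, whereas leaving out any other of the 6 libraries gave 0.

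That ZT9 library stood apart from its group. Its log2 values correlated at 0.957 to 0.965 with the ZT13 libraries and at 0.939 and 0.955 with the other ZT9 libraries, which themselves correlated at 0.966. The ZT13 libraries correlated at 0.955 to 0.968 with one another. The first principal component of the 18 libraries held 22.7% of the variance. The 200 regions that weighed most on it were taken at one end only, that of the ZT9 library of replicate label 1. Of these, 3.5% lay within 1 kb of a start site, against 29.5% of all regions. Their median level was 5.27, 5.09 and 4.67 CPM (tag counts scaled to one common library total) in the ZT13 libraries, against 18.2, 7.45 and 13.5 CPM in the ZT9 libraries of replicate labels 1, 2 and 3. The same regions were high in 2 of the 3 libraries at ZT5 and at ZT21 and low in the remaining one, so the split ran across times. In 161 of the 200 regions all ZT13 libraries lay below all ZT9 libraries and in 0 above, against 9.80% and 10.5% of all regions. The component was computed with the compared libraries and only that end was taken, so these counts follow largely from the choice of regions. Of the 835 regions lower at ZT13 in the 6-library fit, 184 were among the 200. The part of this component in the differences between ZT13 and ZT9 was not tested. A further fit used another component as a covariate, the first principal component of the residuals around the mean of each time. There 879 regions were higher (2.06%) and 1374 lower (3.23%) at ZT13. That component is centred within each time, so the fit narrows the spread but cannot remove a shift between ZT13 and ZT9. That covariate was estimated from the same libraries, and the fit does not allow for its estimation.

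**Figure D1:**
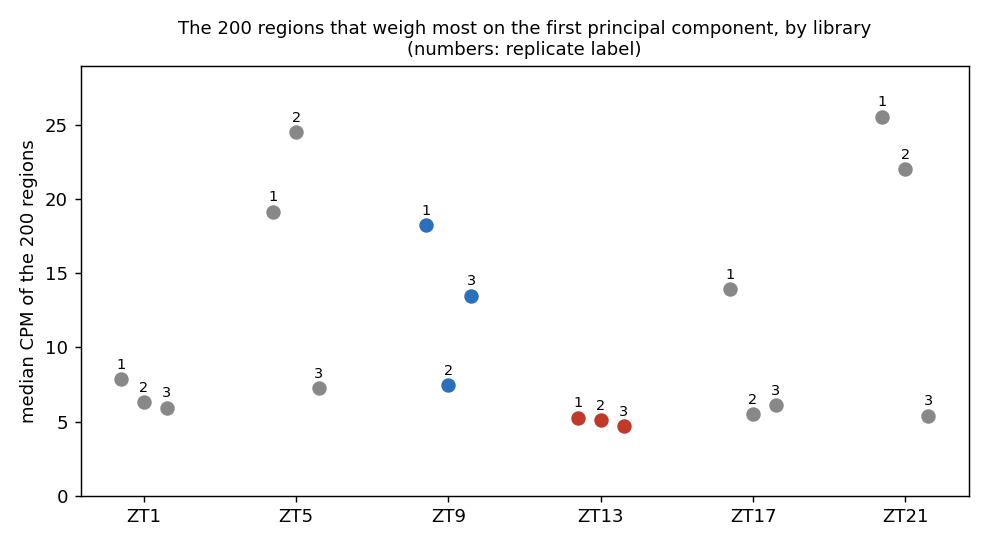
Median level of the 200 regions that weigh most on one end of the first principal component, in CPM, for each of the 18 BAT ATAC libraries by Zeitgeber time; the number over a point is the replicate label. The 3 ZT13 libraries lie between 4.67 and 5.27 CPM, and the ZT9 libraries at 18.2, 7.45 and 13.5 CPM.

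Depth in regions was 5378386, 6051638 and 5131774 tags in the ZT13 libraries and 9586811, 8574240 and 4795212 tags in the ZT9 libraries. At the median SE, differences well under 1.5-fold could not be told from 0 in single regions. Larger differences did not pass either: of 1560 regions that differed by more than 1.5-fold, 0 were called. Levels are CPM scaled by the trimmed mean of M-values (TMM), whose factors ran close to 1 in every library. The adipocyte markers checked, brown or general, were Ucp1, Cidea, Ppargc1a, Prdm16, Dio2, Cox8b, Adipoq, Plin1 and Pparg. All 9 had a region within 10 kb of a start site, 26 regions in all. Their median was 28.8 CPM, against 17.9 CPM over all regions. Several of them are promoters, a class with a median of 30.3 CPM, so that level is not particular to these markers. Few markers of other cell types had a region. A region lay within 10 kb of 1 of 8 macrophage markers, 2 of 8 lymphocyte markers and 1 of 8 endothelial markers, and summed levels over those regions were 7.87 to 11.5, 37.2 to 39.3 and 12.2 to 13.5 CPM at ZT13, against 7.46 to 11.2, 31.5 to 41.1 and 11.8 to 14.0 CPM at ZT9. Adgre1, Csf1r, Cd3e, Pecam1 and Cdh5 had no region. Of 8 fibroblast and progenitor markers 5 had a region, with sums of 125 to 129 CPM at ZT13 and 112 to 130 CPM at ZT9. For 4 of 8 skeletal muscle markers the sums were 122 to 140 CPM at ZT13 and 122 to 128 CPM at ZT9, and for 2 of 6 Schwann and neural markers 78.4 to 81.7 CPM at ZT13 and 65.4 to 77.4 CPM at ZT9, and 1 region in each of these sets had every ZT13 library above every ZT9 library. Their part in the other results was not tested.

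Among regions that were more accessible at ZT13, the 10 of smallest p lay mostly in introns and between genes, and none was called, with adjusted p between 0.0830 and 0.0894. The largest difference was in a region between genes on chromosome 2 (153560675 to 153560825), assigned to Nol4l at -30779 bp from its start site. It had 22, 25.6 and 27.8 CPM at ZT13, against 9.9, 15.0 and 13.7 CPM at ZT9, a log2 change of 0.98 (SE 0.17). An intron of Lamb3, which encodes the beta 3 chain of laminin, a basement membrane protein, had 31.2, 36.3 and 37.3 CPM at ZT13, against 17.9, 21.3 and 14.7 CPM at ZT9 (chromosome 1, 193317118 to 193317268; log2 change 0.94, SE 0.18). In both regions every ZT13 library stood well above every ZT9 library.

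The promoter of the noncoding gene Gm16897, -670 bp from its start site (chromosome 1, 194977554 to 194977704), had 39.0, 40.2 and 39.7 CPM at ZT13, against 21.3, 25.6 and 25.3 CPM at ZT9, a log2 change of 0.73 (SE 0.14). The other promoter among the 10 was that of Pwwp2b, a nucleosome-binding protein, with 48.8, 53.5 and 54.3 CPM at ZT13, against 35.2, 39.6 and 37.6 CPM at ZT9 (chromosome 7, 139247606 to 139247756; log2 change 0.48, SE 0.088). An intron of Igfbp5, a secreted binder of insulin-like growth factors, had 46.6, 43.6 and 44.9 CPM at ZT13, against 27.1, 31.9 and 28.0 CPM at ZT9 (log2 change 0.63, SE 0.12). Groups did not overlap at any of these regions, nor at the others of the 10. Those lay at S100a10, the partner of annexin A2, at 438 bp from the start site (fold 1.52); at Dhrs3, a reductase of retinaldehyde (fold 1.51); at Ldlrad3, a membrane protein (fold 1.69); at Trp53i11, a gene induced by p53 (fold 1.33); and at 4932435O22Rik (fold 1.79).

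**Figure D2:**
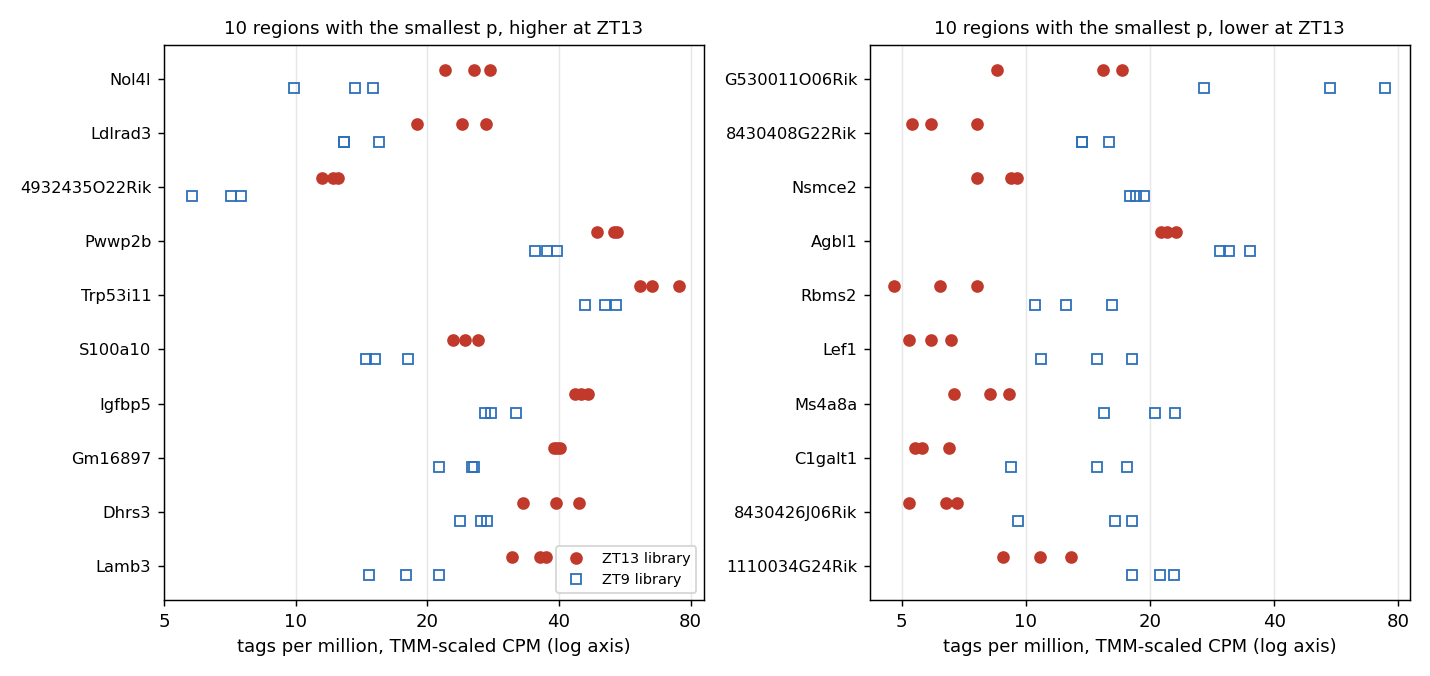
Level of each of the 20 regions of smallest p in every ZT13 library (filled circles, upper row of each gene) and every ZT9 library (open squares), in TMM-scaled CPM on a log axis; the left panel holds the 10 higher at ZT13 and the right panel the 10 lower at ZT13. In each region the 3 circles lie on one side of the 3 squares, and no region had an adjusted p below 0.0830.

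Among regions with an unadjusted p under 0.01, the 826 that were lower at ZT13 had a median absolute log2 change of 0.68 and a median level of 15.4 CPM, and the 1057 that were higher had 0.48 and 19.4 CPM. The smallest p of all was in exon 2 of the noncoding gene G530011O06Rik near the end of the X chromosome (169975707 to 169975857), with 8.5, 15.4 and 17.1 CPM at ZT13, against 74.3, 27.0 and 54.8 CPM at ZT9 (log2 change -1.93, SE 0.31, adjusted p = 0.0830). The ZT9 libraries spread widely there, and the stretch lies by the part of the X that the Y shares and that is rich in repeats, so reads of near-identical copies could mix and the value is uncertain. An intron of 8430408G22Rik had 7.6, 5.9 and 5.3 CPM at ZT13, against 15.9, 13.7 and 13.7 CPM at ZT9 (chromosome 6, 116653854 to 116654004; log2 change -1.21, SE 0.22). In an intron of Nsmce2, a SUMO ligase of the SMC5/6 complex, levels were 9.2, 9.5 and 7.6 CPM at ZT13, against 19.4, 17.9 and 18.5 CPM at ZT9 (chromosome 15, 59392137 to 59392287; log2 change -1.08, SE 0.19). Both of these regions had close replicates at each time.

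A region between genes, -72939 bp from the start site of Lef1, a transcription factor of the Wnt pathway, had 5.9, 5.2 and 6.6 CPM at ZT13, against 18.1, 10.9 and 14.9 CPM at ZT9 (log2 change -1.31, SE 0.24). The promoter of 8430426J06Rik, whose letters are shown above with no match to any of the 8 motifs searched, had 5.2, 6.4 and 6.8 CPM at ZT13, against 16.5, 9.6 and 18.1 CPM at ZT9 (log2 change -1.24, SE 0.26, adjusted p = 0.109). In both, the ZT9 library of replicate label 2 was the lowest of its group, as it was in the 200 regions described above. The same held throughout the 20 named regions. That library was the lowest or tied lowest of the ZT9 group at every closing region and the highest at every opening one. The other closing regions of the 10 were introns of Agbl1 (fold 0.693), Rbms2, an RNA-binding protein (fold 0.473), Ms4a8a (fold 0.410) and 1110034G24Rik (fold 0.524), and a region between genes assigned to C1galt1, the synthase of core 1 O-glycans (fold 0.421). All 20 of the opening and closing regions passed the adjusted threshold with DESeq2, with the 6 libraries alone, without the ZT9 library of replicate label 2 and with the residual component as a covariate, and 0 passed under the other alternatives. Over those alternatives their adjusted p ran from 1.48e-06 to 0.611.

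Over the 6 sampled times the named regions followed several courses. Gm16897 averaged 17.1 CPM at ZT5, 24.1 CPM at ZT9, 39.6 CPM at ZT13 and 39.3 CPM at ZT17. The region of 8430408G22Rik averaged 32.3 CPM at ZT1, 10.2 CPM at ZT5, 14.4 CPM at ZT9, 6.24 CPM at ZT13 and 4.38 CPM at ZT17. The Agbl1 region was low at ZT13 alone, with 21.3, 23.1 and 22 CPM there and no library of the other 5 times under 27.0 CPM. The ZT17 minus ZT5 contrast uses none of the 6 libraries of ZT13 and ZT9. In it Gm16897 rose (log2 change 1.18, SE 0.14, adjusted p = 8.72e-05), as did Lamb3 (0.87, SE 0.17, adjusted p = 0.00503) and 4932435O22Rik (0.72, SE 0.14, adjusted p = 0.00432), and 8430408G22Rik fell (-1.19, SE 0.22, adjusted p = 0.00311). The other 16 regions did not pass in that contrast.

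**Figure D3:**
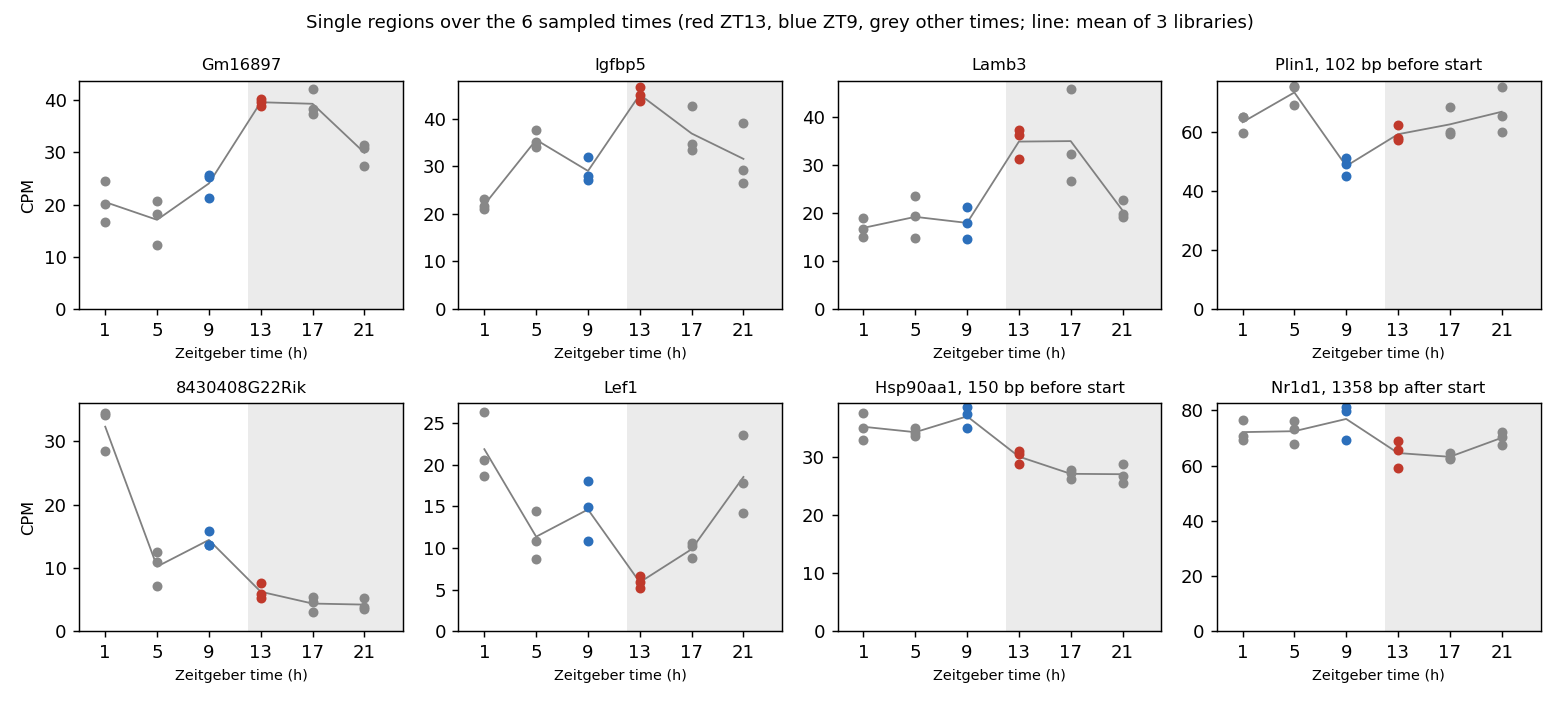
Level in CPM of 8 regions in each of the 18 BAT ATAC libraries against Zeitgeber time in hours, with ZT13 in red, ZT9 in blue, the other times in grey and a line through the means of 3 libraries; shading marks the dark phase by convention. The Gm16897 region averages 39.6 CPM at ZT13 and 24.1 CPM at ZT9, and the 8430408G22Rik region 6.24 and 14.4 CPM.

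Core clock genes showed small differences across lights off. All 19 clock genes checked had a region within 10 kb of a start site, 49 regions in total, and 0 were called, with a median log2 change of -0.033 against 0.0046 over all regions. At an unadjusted p under 0.05, 3 regions were higher and 7 lower at ZT13, against 7.01% and 6.20% of all regions. The lower ones included both Nr1d genes, which encode the repressors REV-ERB alpha and beta. In an intron of Nr1d2, 769 bp from its start site, levels were 46.6, 42.3 and 40.6 CPM at ZT13, against 53.1, 53.5 and 50.0 CPM at ZT9 (log2 change -0.28, SE 0.075, adjusted p = 0.143). An intron of Nr1d1 at 1358 bp had 59.1, 65.6 and 69.0 CPM at ZT13, against 81.4, 69.4 and 79.9 CPM at ZT9 (-0.25, SE 0.071, adjusted p = 0.162). Groups did not overlap at either region. The Nr1d2 intron was not its region of highest mean level. That was the Nr1d2 promoter, with a log2 change of -0.076 (SE 0.059). The Nr1d1 promoter had -0.096 (SE 0.089), and groups overlapped at both promoters.

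Nfil3 encodes a repressor that binds D-box sites. Its region at 6207 bp had 15.7, 15.4 and 20.2 CPM at ZT13, against 24.8, 23.5 and 24.3 CPM at ZT9 (log2 change -0.50, SE 0.15, adjusted p = 0.180). No ZT13 library reached a ZT9 library at that region. Groups overlapped at the Nfil3 promoter, its region of highest mean level (log2 change 0.044, SE 0.077). The remaining Nfil3 regions had -0.080 (SE 0.13) and -0.033 (SE 0.16). Over the 49 regions of the list, every ZT13 library lay below every ZT9 library in 8 and above in 2. The shares over all regions were 9.80% and 10.5%.

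The other clock genes are described by their region of highest mean level or by their promoter. The promoter of Arntl had 46.9, 52.5 and 49.0 CPM at ZT13, against 50.6, 43.7 and 53.6 CPM at ZT9 (log2 change 0.018, SE 0.098). Dbp, an activator at D-box sites, had 69.5, 74.3 and 69.2 CPM at its promoter at ZT13, against 71.9, 64.3 and 81.6 CPM at ZT9 (-0.017, SE 0.073). The Per2 promoter had 52.7, 56.6 and 58.0 CPM at ZT13, against 61.7, 50.6 and 60.6 CPM at ZT9. The groups overlapped at all 3. For Per1 the highest region lay at -3782 bp, with 62.8, 65.5 and 69.6 CPM at ZT13, against 76.2, 69.9 and 70.0 CPM at ZT9 (-0.13, SE 0.063, adjusted p = 0.373). Its promoter, with an E-box in the letters above, had a log2 change of 0.092 (SE 0.081). The Ciart promoter, also with an E-box, had 58.8, 52.2 and 52.3 CPM at ZT13, against 53.5, 43.9 and 46.9 CPM at ZT9 (0.17, SE 0.083, adjusted p = 0.374). Ciart encodes a repressor of CLOCK and BMAL1.

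**Figure D4:**
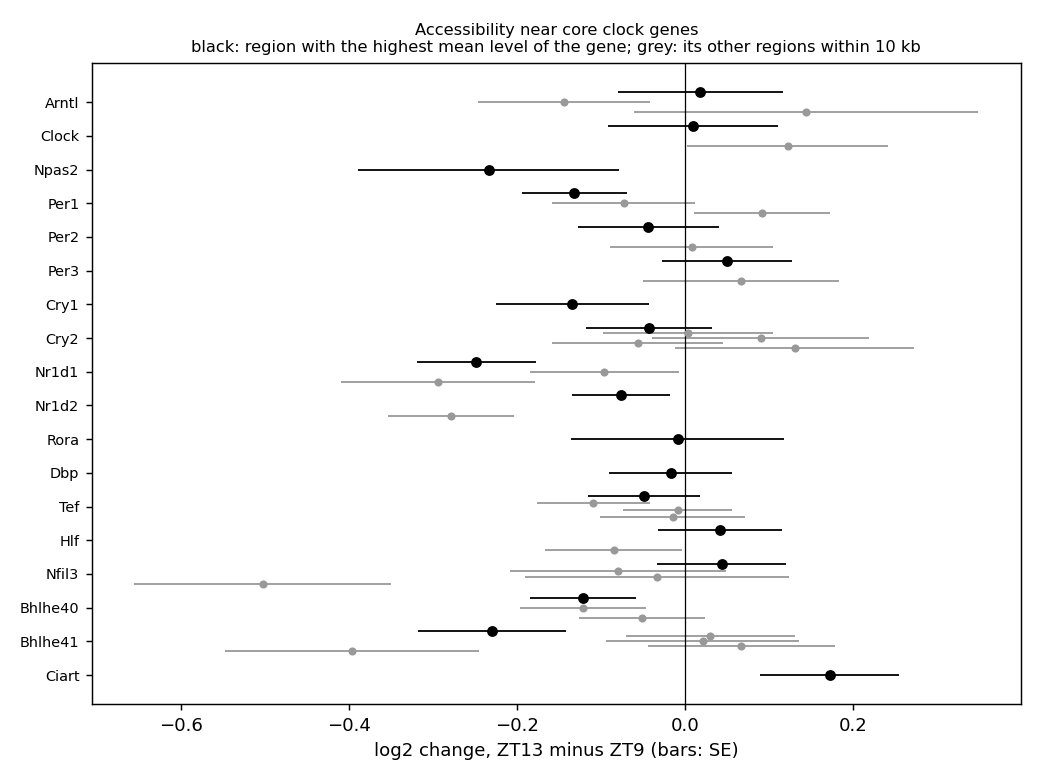
Log2 change of accessibility, ZT13 minus ZT9, with its SE, for 45 regions within 10 kb of the start sites of 18 core clock genes; black marks the region of highest mean level of each gene and grey the others. Values run from -0.50 at Nfil3 to 0.17 at Ciart, and 0 regions were called.

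Regions near genes of brown fat function were counted beside all regions, of which 7.01% were higher and 6.20% lower at ZT13 at an unadjusted p under 0.05. Of 48 regions near 20 thermogenesis genes, 3 were higher and 2 lower at such a p, close to those shares, and 0 were called. Every ZT13 library lay above every ZT9 library in 5 of them and below in 1, against 10.5% and 9.80% of all regions. The region of smallest p was assigned to Cidea, a lipid droplet protein, with 36.2, 43.8 and 42.6 CPM at ZT13, against 30.6, 33.8 and 30.7 CPM at ZT9 (log2 change 0.36, SE 0.085, adjusted p = 0.112). At the Ucp1 enhancer stretch at -2436 bp, levels averaged 50.2 ± 4.30 CPM at ZT13 and 42.4 ± 3.34 CPM at ZT9 (SD, n = 3 each; log2 change 0.23, SE 0.11). The Ucp1 promoter averaged 14.3 ± 6.35 CPM at ZT13 and 11.2 ± 2.44 CPM at ZT9, and 36.7 CPM at ZT17. Further Ucp1 regions at -4675 and -5719 bp had log2 changes of -0.021 (SE 0.16) and 0.090 (SE 0.10). The Cidea region above lay at -7083 bp, while that at 161 bp had -0.0088 (SE 0.086). The 2 lower regions were the promoters of Prdm16 (-0.31, SE 0.13) and Adrb1 (-0.25, SE 0.12). These regions, and those named below from the adipocyte identity, lipid, stress and hormone lists, were picked from the lists after their values were seen.

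Among 51 regions near 15 adipocyte identity genes, 6 were higher and 3 lower at ZT13 at an unadjusted p under 0.05, against 7.01% and 6.20% of all regions, and 0 were called. Every ZT13 library lay above every ZT9 library in 4 of the 51 regions and below in 7, against 10.5% and 9.80% of all regions. Plin1 encodes perilipin, the coat of the lipid droplet. Its promoter, shown above with a C/EBP match, had 57.3, 62.3 and 57.8 CPM at ZT13, against 48.9, 51.2 and 45.0 CPM at ZT9 (log2 change 0.28, SE 0.083, adjusted p = 0.170). The Plin1 region at -2002 bp had 0.29 (SE 0.079), and that at 5408 bp went the other way (-0.40, SE 0.18). Adiponectin (Adipoq) had 78.2, 80.1 and 86.0 CPM at its promoter at ZT13, against 66.5, 79.4 and 68.3 CPM at ZT9 (0.18, SE 0.072). Those 2 groups overlapped by little: the lowest ZT13 library was under the highest ZT9 library. A region assigned to Fabp4, a fatty acid carrier, had 23.8, 25.6 and 23.5 CPM at ZT13, against 9.6, 18.4 and 16.6 CPM at ZT9 (0.73, SE 0.18, adjusted p = 0.121). Pparg, the master regulator of adipocytes, went the other way at the promoter shown above, with 26.8, 21.3 and 21.2 CPM at ZT13, against 37.7, 25.5 and 33.2 CPM at ZT9 (-0.48, SE 0.16, adjusted p = 0.219), and those groups overlapped.

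Near lipogenesis genes, 7 of 70 regions were higher and 5 lower at ZT13 at an unadjusted p under 0.05, and near lipolysis genes 6 of 38 were higher and 3 lower, against 7.01% and 6.20% of all regions. The higher lipolysis regions lay near Mgll, Plin1 and Ppara only. Plin1 is also in the adipocyte identity list, so the counts of those lists share its regions. Every ZT13 library lay above every ZT9 library in 12 lipogenesis and 9 lipolysis regions and below in 6 and 4, against 10.5% and 9.80% of all regions, and 0 were called. A region assigned to Fasn, the fatty acid synthase, at -6328 bp from its start site had 59.5, 57.6 and 57.6 CPM at ZT13, against 43.3, 47.8 and 39.4 CPM at ZT9 (log2 change 0.41, SE 0.088, adjusted p = 0.109). Thrsp, a nuclear protein tied to lipogenesis, had 3 regions with p under 0.05, all higher at ZT13, and its promoter had 53.0, 49.4 and 55.0 CPM at ZT13, against 44.7, 49.6 and 40.3 CPM at ZT9. In Mgll, the monoacylglycerol lipase, 3 regions likewise had p under 0.05, with log2 changes of 0.18, 0.24 and 0.31. An intron of Mlxipl, which encodes the glucose-sensing factor ChREBP, had 13.1, 12.8 and 11.9 CPM at ZT13, against 19.1, 15.9 and 18.3 CPM at ZT9 (-0.49, SE 0.15). Lipogenesis regions had a median log2 change of 0.022, and lipolysis regions of -0.0012, close to that of all regions.

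In stress and hormone response lists 0 regions were called. Of all regions 13.2% had an unadjusted p under 0.05 in either direction. In the glucocorticoid list 4 of 37 regions were lower and 1 higher at ZT13 at an unadjusted p under 0.05. Of the lower ones, 3 lay near Klf9, a factor induced by glucocorticoids, and that at -6242 bp had 26.1, 29.7 and 28.8 CPM at ZT13, against 43.1, 30.3 and 45.5 CPM at ZT9 (log2 change -0.48, SE 0.13, adjusted p = 0.145). The promoter of Hsp90aa1, an inducible chaperone, had 30.5, 31.0 and 28.8 CPM at ZT13, against 38.6, 37.4 and 35.1 CPM at ZT9 (-0.30, SE 0.082, adjusted p = 0.146). At that promoter no ZT13 library reached a ZT9 library. Heat shock and cold genes otherwise had 1 higher and 1 more lower region among 25. For immediate early factors the counts were 5 higher and 6 lower of 49 regions, and the smallest p was near Fosb, with 16.6, 17.4 and 21.2 CPM at ZT13, against 10.4, 12.4 and 13.1 CPM at ZT9 (0.63, SE 0.14, adjusted p = 0.109).

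The difference between classes of region was not tested. Among 10629 promoter regions, 5.33% had every ZT13 library above every ZT9 library and 9.85% every ZT13 library below, with a median log2 change of -0.027. In 16016 intronic regions the shares were 13.3% and 9.40%, with a median of 0.033, and in 13426 intergenic regions 11% and 10.4%. Promoter regions took 36.6% ± 0.322 of tags at ZT13 and 37.3% ± 0.440 at ZT9 (SD, n = 3 each). The difference of -0.667 percentage points gave p = 0.20 in an exact two-sided permutation test, where 3 against 3 libraries allow no p below 0.10. In the 4258 regions of highest mean level, every ZT13 library lay above every ZT9 library in 6.36% and below in 10.5%.

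BMAL1 binding sites were taken from ChIP-seq of inguinal white fat of C57BL6J mice at ZT4, so they come from another depot and time. Of the 42572 BAT regions, 6236 overlapped a BMAL1 peak by at least 75 bp. On these, 6.30% had every ZT13 library above every ZT9 library and 11.1% every ZT13 library below, against 10.5% and 9.80% of all regions, and at an unadjusted p under 0.05 3.08% were higher and 6.85% lower. Among 345 regions on the 500 peaks of highest score, as the authors' peak caller gave it, 3.19% were higher and 11.9% lower at such a p, and the median log2 change was -0.059. Distal regions over 1 kb from a start site on a BMAL1 peak (2372 regions) had shares of 5.31% higher and 9.44% lower, against 9.04% and 6.47% in 27655 distal regions without one. Most regions on a peak, 3614, were promoters. Promoters with a peak had 4.54% above and 10.4% below, against 5.75% and 9.55% in 7015 promoters without one. None of the 6236 regions was called, and differences between these sets were not tested. Of the 49 core clock regions, 15 lay on a BMAL1 peak.

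Promoter sequences were searched for 8 motifs. In 4899 regions that lie wholly inside a promoter window (250 bases before to 50 after a start site), the E-box CACGTG was found in 360 (7.35%). Regions with the E-box had a median log2 change of -0.050 and those without it -0.026. Every ZT13 library lay below every ZT9 library in 11.9% of regions with the E-box and in 9.61% without, and above in 3.06% and 4.96%. The receptor site AGGTCA was found in 262 regions (5.35%), with 10.7% below and 5.34% above. The C/EBP site TTGCNNAA occurred in 201 regions (4.10%), with 10.4% below and 6.47% above. The D-box TTANGTAA occurred in 21 regions (0.429%), the CRE TGACGTCA in 148 (3.02%) and the glucocorticoid element ACANNNTGT in 64 (1.31%), with 14.3%, 14.2% and 14.1% below, all larger shares than with the E-box. The heat shock element GAANNTTC occurred in 98 (2.00%), with 12.2% below, and the AP-1 site TGANTCA in 103 (2.10%), with 7.77% below. Regions with the CRE had a median log2 change of -0.052. Both strands were searched, and a region may hold several motifs.

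Against the other steps of the day, the step over lights off had the fewest called regions. In the same fit 4764 regions (11.2%) were called from ZT1 to ZT5, 1981 (4.65%) from ZT5 to ZT9, 121 (0.284%) from ZT13 to ZT17, 2538 (5.96%) from ZT17 to ZT21 and 4023 (9.45%) from ZT21 to ZT1. Without correction 13.2% of regions had p under 0.05 between ZT13 and ZT9, 12.5% between ZT17 and ZT13 and 25.9% between ZT5 and ZT1. The median absolute log2 change was 0.13 for ZT13 minus ZT9 and 0.17 for ZT5 minus ZT1. These steps share libraries at each time, and the difference between steps was not tested.

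**Figure D5:**
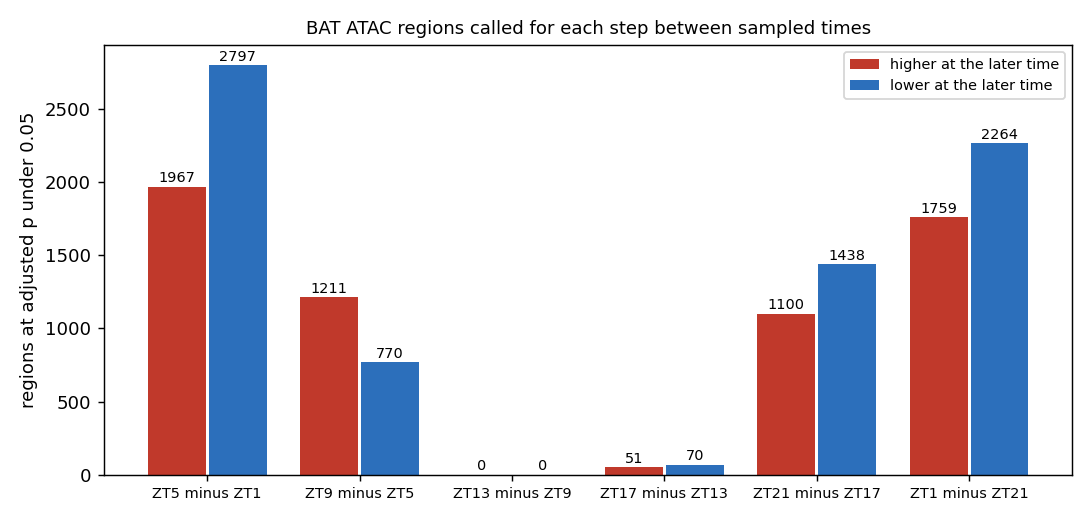
Number of BAT ATAC regions with an adjusted p under 0.05 for each step between neighbouring sampled times, higher at the later time in red and lower in blue, out of 42572 regions. The step from ZT9 to ZT13 has 0 in each direction, that from ZT13 to ZT17 has 51 and 70, and that from ZT1 to ZT5 has 1967 and 2797.

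The leading regions were also looked up in the contrast of ZT17 and ZT5, which shares no library with ZT13 or ZT9. Between ZT17 and ZT5, 4173 regions (9.80%) were called, 2570 higher and 1603 lower at ZT17. Of the 1057 regions higher at ZT13 than at ZT9 with an unadjusted p under 0.01, 189 were called higher and 13 lower at ZT17 than at ZT5. Of the 826 regions lower at ZT13 with such a p, 105 were called lower and 15 higher. Promoters made up 7.29% of the 1057 and 14.9% of the 826, against 25% of all regions, and introns 51.9% and 42.3%, against 37.6%.

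The authors' deposited table of JTK_CYCLE, a test for daily rhythms made from the same 18 libraries, gives a q-value under 0.05 for 3873 regions that could be joined by name. Of 872 with a deposited phase from ZT12 to before ZT16, every ZT13 library lay above every ZT9 library in 344 (39.45%). For 673 with a phase from ZT16 to before ZT20 the count was 282 (41.9%), against 10.5% of all regions. Of 335 with a phase from ZT0 to before ZT4, every ZT13 library lay below every ZT9 library in 116 (34.6%) and above in 0. Of 604 from ZT4 to before ZT8 the counts were 200 (33.1%) and 0, against 9.80% and 10.5% of all regions. From ZT8 to before ZT12, 123 of 618 lay below (19.9%) and 16 above (2.59%). From ZT20 to before ZT24, 9 of 771 lay below (1.17%) and 184 above (23.9%). Of the 20 named regions, 3 had a q under 0.05 in the authors' deposited table: Gm16897 (q = 0.00178, phase 16), 4932435O22Rik (q = 0.00489, phase 18) and Lef1 (q = 0.0310, phase 2). Since the phases rest on the compared libraries, these counts describe the table and test nothing.

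Ribosome-bound RNA of BAT adipocytes, pulled down through the same NuTRAP tag, was counted in 17 other libraries, 3 at ZT13 and 3 at ZT9. There 11 of 12394 genes (0.0888%) were called, 10 higher and 1 lower at ZT13. Of the 10, 7 were named as ribosomal protein genes or a retrocopy of one: Rpl31, Rpl12, Rpl11, Rps25, Rps20, Rps27 and Rpl37rt. Rpl31 had 176, 171 and 202 CPM at ZT13, against 70.2, 97.6 and 65.2 CPM at ZT9 (log2 change 1.24, SE 0.17, adjusted p = 0.00935). Ribosomal protein genes have many near-identical pseudogenes, so how their reads were shared is uncertain. P4ha1, a collagen prolyl hydroxylase, had 2.34, 2.85 and 2.78 CPM at ZT13, against 9.91, 6.82 and 9.49 CPM at ZT9 (-1.72, SE 0.23, adjusted p = 0.00935). Leaving out the ZT9 library of replicate label 1 or 3, or the ZT13 library of label 3, gave 0 called genes, leaving out the ZT13 library of label 1 or 2 gave 5 and 3, and the 6 libraries alone gave 2.

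Accessibility at those promoters gave no called difference. The Rpl31 promoter had a log2 change of 0.089 (SE 0.065), that of Rpl12 0.029 (SE 0.11) and that of P4ha1 0.0052 (SE 0.063). Of the 20 genes nearest the named regions, 12 were tested in RNA and 0 were called, the smallest adjusted p being 0.157. That gene was Rbms2, with 32.2, 26.4 and 35.8 CPM of RNA at ZT13, against 14.0, 22.3 and 16.2 CPM at ZT9, while its intronic region had 4.8, 6.2 and 7.6 CPM of ATAC tags at ZT13, against 16.2, 10.5 and 12.5 CPM at ZT9. Nfil3 RNA had a log2 change of 0.78 (SE 0.24, adjusted p = 0.300). Across 1133 genes near regions with every ZT13 library above every ZT9 library, 49.8% had a higher RNA mean at ZT13, against 49.8% of all 9341 genes with a region.

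White adipose tissue (WAT) also gave no called region. At 25050 WAT regions 0 (0%) were called between ZT13 and ZT9, with a smallest adjusted p of 0.2495 and 2014 regions (8.04%) at an unadjusted p under 0.05. Of the BAT regions, 21626 overlapped one WAT region by at least 75 bp, and a test of whether the ZT13 minus ZT9 change differed between depots called 0 of them (0%). At an unadjusted p under 0.05 there were 928 (4.29%), and the smallest adjusted p was 0.5575. Of the 20 named regions 10 were shared. Pwwp2b had a log2 change of 0.49 in BAT and 0.34 in WAT, a difference of 0.16 (SE 0.16), with 27.7, 23.6 and 29 CPM in WAT at ZT13, against 17.6, 21.8 and 23.1 CPM at ZT9. Dhrs3 had 0.61 in BAT and 0.49 in WAT (difference 0.12, SE 0.24), and Agbl1 -0.51 and -0.36 (difference -0.15, SE 0.20). S100a10 had 0.62 and 0.080 (difference 0.54, SE 0.21), Gm16897 0.74 and 0.21 (0.53, SE 0.24) and Igfbp5 0.65 and 0.18 (0.46, SE 0.22). C1galt1 had -1.23 and -0.52 (-0.71, SE 0.34), 8430426J06Rik -1.22 and -0.32 (-0.90, SE 0.34) and G530011O06Rik -1.91 and -1.11 (-0.79, SE 0.57). All were named for a small p in BAT, and none of these differences passed the test. Lamb3 had 0.95 in BAT and 0.27 in WAT (difference 0.68, SE 0.27, adjusted p = 1.00), a difference that did not pass the test.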

How the data were processed

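Tags per region were deposited by the authors as raw counts, made with HOMER on mm10 with one peak set per depot, per the file headers. RNA was deposited by the authors as estimated counts per gene (STAR 2.7.5 and RSEM 1.3.0, per the submitters' processing notes) and rounded here. BMAL1 peaks carry the HOMER score of the authors' pooled peak set, per the file headers, and the submitters' processing notes name Bowtie2 2.4.1. The q-value and phase in hours of each region are those of the authors' deposited JTK_CYCLE table.

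From these, edgeR 4.0.16 (R 4.3.3) fitted time over all libraries of a depot, with TMM scaling, its filter on low counts and quasi-likelihood tests adjusted by Benjamini-Hochberg over all features, at a threshold of 0.05. SE is the absolute log2 change over the square root of F. DESeq2 1.42.0 and limma 3.58.1 were alternatives. Overlaps used GenomicRanges 1.54.1, and figures matplotlib 3.10.9 in Python 3.11.15. Methods were tested on simulated data. Samples were grouped by their labelled tissue, assay and time. The rule names called regions, or, with fewer than 5 called in a direction, the 10 of smallest p there, and for each clock gene its region of highest mean level. Genes were assigned to regions by the authors' annotation. Members, lists and tests were chosen with earlier results of these data known. Of the core clock list, 1 gene is not reported by name here.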

Additional observations from a re-analysis of the deposited data

How the results depend on the processing

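For the regions called between ZT13 and ZT9, which numbered 0, the counts were 132 with DESeq2, 1127 with only the 6 libraries of ZT13 and ZT9, and 2253 with the residual principal component as a covariate, an alternative chosen after seeing the data. Leaving out one library gave 0 to 461 called regions, with 461 without the ZT9 library of replicate label 2. Library size without TMM, no filter on low counts and limma with cyclic loess left 0. For RNA, where 11 genes were called, the counts were 99 with DESeq2, 27 without TMM, 256 without the filter on low counts and 2 with the 6 libraries alone, and 0 to 13 when one library was left out. The cause of these shifts was not tested.

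Same-numbered libraries did not deviate together (correlations of -0.0199, -0.0017 and -0.008), so the numbers are not taken to pair samples. With a replicate block, 0 regions and 3 RNA genes were called, and 0 regions for the difference between depots. Among the 19 clock regions described by their highest level, log2 changes near 0 changed sign in some alternatives, and none of these was called in the main fit. When one library was left out they ran over -0.0651 to 0.0705 at Arntl, -0.0598 to 0.0983 at Clock, -0.1359 to 0.0214 at Per2, -0.0031 to 0.113 at Per3, -0.1203 to 0.0062 at Cry2, -0.0819 to 0.0884 at Rora, -0.0979 to 0.06 at Dbp and -0.0095 to 0.1176 at Hlf. The Clock region was -0.0002 with the 6 libraries alone and -0.0098 with cyclic loess, and the Dbp region 0.0047 with cyclic loess. Values of the 20 named regions kept their sign in every alternative. These regions were picked for a small p in the same libraries and their groups did not overlap. Leaving out a library could therefore hardly change a sign, and the kept signs test nothing. Of the 19 clock regions, 1 passed without the ZT9 library of replicate label 2, and 1 with the residual component as a covariate. Of all 49 core clock regions, 1 was called lower with the 6 libraries alone and 3 with that covariate. Some regions of other lists were called in those fits too, and those of Fasn and Fabp4 described above passed in both. The counts of 0 given for the lists are those of the main fit. Depth of 4795212 to 9586811 tags in the 6 libraries and 3 libraries a time limit what single regions can show.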
